A study of Sus scrofa with 4 samples.

Results

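The translation factors and the aminoacyl-tRNA synthetases are described here in fibroblasts grown from shallow and deep skin wounds of pigs. Members were all genes whose probeset carried a single gene symbol that either began with EIF or EEF or had the form of a synthetase symbol such as WARS or EPRS. EIF2AK2, a kinase, was left out. The rule took 60 of the 6765 genes with such a probeset, 41 of them translation factors and 19 synthetases. Where a gene had several such probesets, the one brightest on average over the 4 arrays (mean of log2 signals) stood for it. The factors and the synthetases are reported apart.

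The RNA came from confluent fibroblast cultures, grown from biopsies taken from the backs of 2 Duroc pigs 20 weeks after shallow and deep wounds were made there. Each pig gave 1 shallow and 1 deep culture, so the comparison rests on 4 Affymetrix arrays, 2 per depth. All 4 cultures were grown in the same serum-containing medium, and no drug, genotype or unwounded group was part of the comparison. The comparison asks whether wound depth goes with a difference in fibroblast transcripts within an animal, as measured in culture and not in the wound itself.

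Protein synthesis starts when initiation factors load a small ribosomal subunit with the initiator tRNA, recruit it to the capped end of an mRNA and position it on the start codon. Elongation factors then deliver each aminoacyl-tRNA to the ribosome, and the synthetases supply those tRNAs by joining each amino acid to its own tRNA. Fibroblasts secrete large amounts of matrix protein, and phosphorylation of eIF2 and sequestration of the cap-binding protein eIF4E are well-known points of control.

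The values are MAS5 signals in intensity units, 1 per probeset and array, and signals of different probesets were not compared as transcript levels. Values below are listed as shallow pig 1, shallow pig 2, deep pig 1 and deep pig 2. The assignment of arrays to pigs follows the sample titles in their listed order, and a crossed reading of the same titles is possible. All 9 measured fibroblast markers lay above every absent-transcript control on all 4 arrays. Their signals summed to 37535, 43246, 58285 and 90723, so the sum was higher on both deep arrays and highest in deep pig 2. The shallow array of pig 1 stood apart: its summed signal of 8 measured epithelial markers was 5527, beside 218 on the other shallow array and 284 and 154 on the deep arrays, and CDH1, EPCAM and DSP were among the markers high there. The 6 endothelial markers summed to 739, 249, 318 and 374, also highest in shallow pig 1. PECAM1 (601, 152, 223 and 281) made up most of each sum and lay above the absent controls on all 4 arrays. CLDN5 gave 114, 56.6, 33.6 and 16.2, while VWF was lowest in shallow pig 1 (14.2, 21.4, 41.6 and 25.6). CDH5, KDR and TEK lay below the highest absent control on all 4 arrays. The 3′ to 5′ ratio of the actin control, a measure of transcript integrity and labelling, read 1.96, 2.41, 3.28 and 6.10 in that order. This ratio was therefore higher on both deep arrays than on both shallow arrays, and highest in deep pig 2. The ratio and wound depth thus go together on these 4 arrays. A fit with the ratio as a covariate cannot fully tell them apart, so its values below, whether kept or changed, are only descriptive.

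No translation factor passed the test for a difference between deep and shallow fibroblasts. Of 41 factors, 39 were tested, and at an adjusted p under 0.05 (limma, Benjamini-Hochberg over 14399 probesets) 0 were called higher and 0 lower. The background for the 5272 named genes tested was 0.303% called higher and 0.0948% called lower. At an unadjusted p under 0.05, 1 factor was higher (2.56%) and 2 were lower (5.13%), beside 7.4% and 8.06% of all named genes. Both deep arrays lay above both shallow arrays for 11 factors (28.2%) and below for 10 (25.6%), beside 23.7% and 28.4% of all named genes, and in 18 factors the groups overlapped. These shares were near the background in both directions. In bulk RNA a smaller number of cells of a type and less RNA per cell cannot be told apart, and the p-values measure only the spread between these 4 arrays.

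The differences among the factors were small. The median log2 difference, deep minus shallow, was −0.03, against −0.04 over all named genes, and it was 0.04 when arrays were centred on the probesets past the filter on dim signals. The factors ranged from −0.86 for EIF4E to 0.83 for EEF1B2, and 0 of 39 differed by more than 1 log2 unit, against 477 of 5272 named genes. The median size of the difference without its sign was 0.24 for the factors and 0.32 for all named genes. Standard errors of single factors ran from 0.26 to 0.37, and in 21 of 39 factors the difference was smaller than its standard error.

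**Figure D1:**
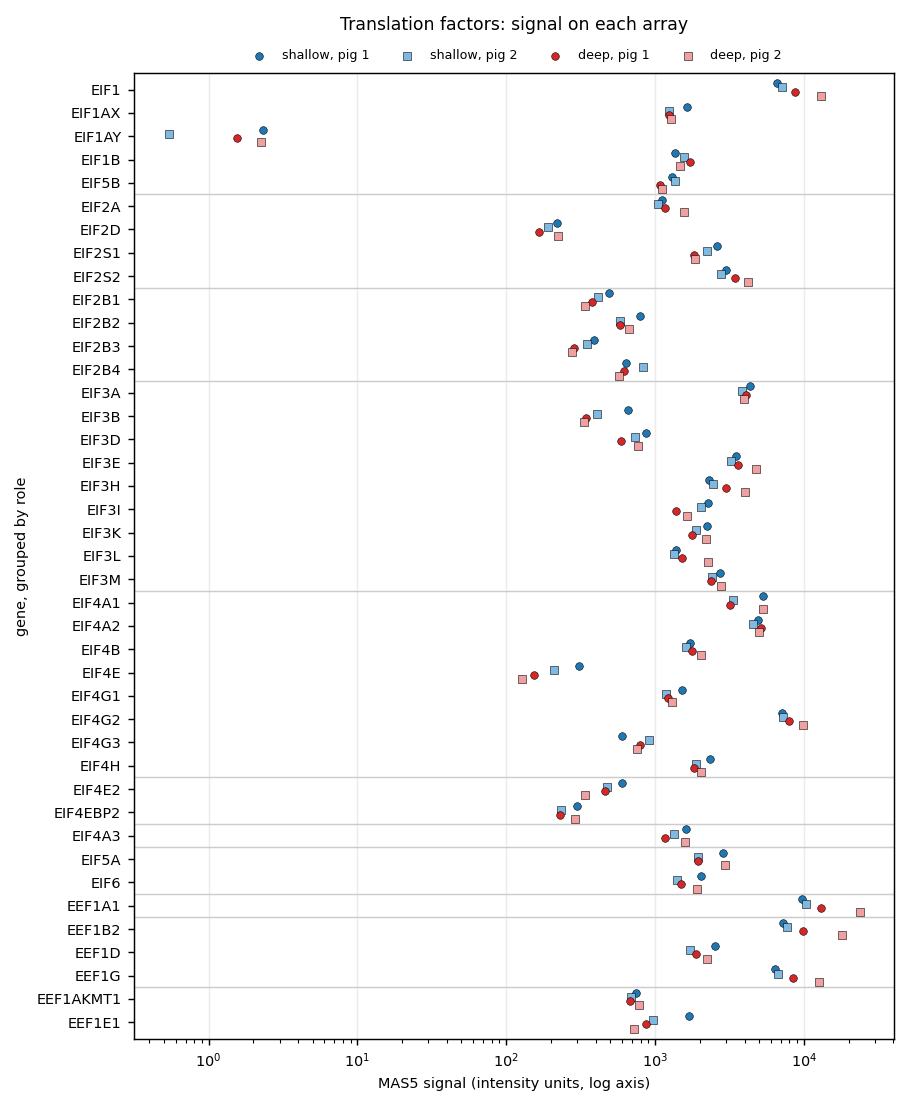
MAS5 signal (intensity units, log axis) of the 41 translation factors on each of the 4 arrays, 1 point per array, with genes grouped by role. Most factors show 4 points within a narrow span, EIF4E has both deep arrays (154 and 128) below both shallow arrays (308 and 210), and EEF1B2 has its highest point, 17896, in deep pig 2.

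Among the factors that find the start codon and join the subunits, EIF1 had the largest difference. EIF1 guards the fidelity of start-codon selection. Its signals were 6628, 7072, 8753 and 13021. Both deep arrays were above both shallow arrays, and deep pig 2 was the highest by a wide margin. The difference was 0.64 ± 0.30 (SE; limma adjusted p = 0.404), and it was 0.03 after quantile normalization and 0.01 with the actin ratio as a covariate. A second EIF1 probeset gave 2604, 2232, 2453 and 3432, overlapping between depths at 0.27 ± 0.30, with −0.09 in pig 1 and 0.62 in pig 2. EIF5B, the GTPase that joins the large subunit, ran the other way, with 1296, 1359, 1071 and 1118. The groups did not overlap, the difference was −0.28 ± 0.26, and it was of the same size in both pigs. Its other tested probesets, with lower signals, gave −0.41 ± 0.32 and 0.15 ± 0.48. EIF1AX and EIF1B, relatives or partners of EIF1 in the scanning complex, overlapped between depths, with differences of −0.18 and 0.12. EIF1AY lay below the absent controls on all 4 arrays and was not tested.

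The subunits of eIF2, the GTPase that carries the initiator tRNA, differed in direction. EIF2S1 encodes the alpha subunit, which the stress kinases phosphorylate to slow initiation. Its signals were 2625, 2242, 1835 and 1861, both deep arrays below both shallow ones. Its difference was −0.39 ± 0.27 (limma adjusted p = 0.566). EIF2S2, the beta subunit, gave 2991, 2768, 3450 and 4204, both deep arrays above both shallow ones. That difference was 0.40 ± 0.28 (limma adjusted p = 0.571). The signs of both subunits held after quantile normalization, both centrings and the actin covariate. EIF2D, which can place tRNA on the ribosome outside the usual route, overlapped between depths at −0.09 ± 0.32. EIF2A, a separate tRNA-binding factor that is not an eIF2 subunit, read 1105, 1045, 1169 and 1555, a difference of 0.33 ± 0.28 that turned to −0.08 with the actin covariate and to −0.33 as a mean over both of its probesets.

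The 4 measured subunits of eIF2B, the exchange factor that recharges eIF2 with GTP, all read lower in deep on average, and did so after quantile normalization, both centrings and the actin covariate. None passed the test, and the smallest limma adjusted p among them was 0.594. EIF2B1 gave 490, 415, 376 and 338, a difference of −0.34 ± 0.28, and its second probeset also gave −0.34. EIF2B3 gave 387, 350, 285 and 278, a difference of −0.39 ± 0.28. EIF2B4 gave 639, 826, 617 and 568, a difference of −0.29 ± 0.28. In these 3 subunits both deep arrays lay below both shallow arrays, as they did in 28.4% of all named genes. In EIF2B2 the groups overlapped, and without the shallow array of pig 1 its difference turned to 0.11, which left 3 of 4 subunits negative.

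The 9 measured subunits of eIF3, the scaffold that holds the small subunit, differed in sign. In 3 subunits both deep arrays were above both shallow arrays, in 2 they were below, and in 4 the groups overlapped. These shares, 33.3% above and 22.2% below, were near the 23.7% and 28.4% of all named genes. The core subunit EIF3A was level, with 4311, 3820, 4103 and 3975 and a difference of −0.01 ± 0.28. EIF3B, another core subunit, gave 657, 410, 342 and 334. Shallow pig 1 was well above the other 3 arrays, and the difference was −0.62 ± 0.30 (limma adjusted p = 0.412) with all arrays and −0.28 without shallow pig 1. Without shallow pig 2 it was −0.96. EIF3I, which binds EIF3B, gave 2285, 2042, 1385 and 1651. Both deep arrays lay below both shallow ones, by −0.51 ± 0.27 (limma adjusted p = 0.457), and the sign held in both pigs and under every scaling tried.

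EIF3H, a subunit of the outer module, ran opposite to EIF3B and EIF3I, with 2311, 2466, 3005 and 4007. Its difference was 0.54 ± 0.27 (limma adjusted p = 0.442), and it was 0.40 after quantile normalization and 0.07 with the actin covariate. EIF3L gave 1391, 1341, 1506 and 2265, and EIF3E gave 3510, 3251, 3598 and 4732. In both, deep pig 2 stood above 3 arrays that were close together. Their differences, 0.44 ± 0.29 and 0.29 ± 0.29, turned to −0.17 and −0.09 with the actin covariate. EIF3D, EIF3K and EIF3M overlapped between depths, with differences from −0.24 to −0.01.

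EIF4E had the largest difference of any factor in either direction. It encodes the protein that binds the mRNA cap and is the subunit held back by the 4E-binding proteins. Its signals were 308, 210, 154 and 128. Both deep arrays were below both shallow arrays, and the sign was the same in both pigs. The difference was −0.86 ± 0.31, a 1.81-fold higher signal in shallow fibroblasts, with a 95% confidence interval of −1.57 to −0.15 and an unadjusted p of 0.0238 by limma. It did not pass over all probesets (limma adjusted p = 0.27), and it was −0.58 without shallow pig 1, −0.79 after quantile normalization and −0.38 with the actin covariate. Without shallow pig 2 it was −1.13. The part that the high epithelial markers of shallow pig 1 have in this difference was not tested beyond leaving that array out.

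The other parts of the cap-binding complex had smaller differences. EIF4G1, the scaffold that joins EIF4E to the ribosome, gave 1523, 1185, 1219 and 1308, and the groups overlapped at −0.09 ± 0.27. EIF4A2, a helicase that unwinds leader sequences, gave 4936, 4526, 5147 and 5006, a difference of 0.10 ± 0.28 that turned to −0.19 after quantile normalization. EIF4A1, its close relative, gave 5293, 3329, 3176 and 5307. Here the high arrays were shallow pig 1 and deep pig 2, so the pigs differed in sign (−0.74 and 0.67) and the mean difference was −0.03 ± 0.37. EIF4G2, a scaffold relative that does not bind EIF4E, gave 7165, 7258, 7883 and 9852, a difference of 0.29 ± 0.29 that turned to −0.28 after quantile normalization. The helicase partners EIF4B and EIF4H had differences of 0.19 and −0.12, and EIF4G3 was at 0.06.

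Among the repressors of cap binding, EIF4E2, which binds caps without recruiting the scaffold, gave 599, 477, 461 and 339. Both deep arrays were below both shallow arrays. The difference was −0.43 ± 0.27 (limma adjusted p = 0.535), and it turned to 0.15 with the actin covariate. EIF4EBP2, a protein that sequesters EIF4E, overlapped between depths at −0.04 ± 0.31. EIF4A3, the helicase of the exon junction complex rather than of initiation, was at −0.12 ± 0.29.

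EIF5A and EIF6 were level on average and opposite in the 2 pigs. EIF5A carries the modified residue hypusine and helps the ribosome through difficult peptide bonds. It gave 2882, 1956, 1937 and 2937, and the difference was 0.01 ± 0.34, made of −0.57 in pig 1 and 0.59 in pig 2. EIF6, which keeps the large subunit from joining too early, gave 2047, 1402, 1488 and 1905, with −0.46 in pig 1 and 0.44 in pig 2. In both genes shallow pig 1 and deep pig 2 were high and close together, as they were in EIF4A1.

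That arrangement recurred among the factors. Of 39 tested factors, 18 (46.2%) had opposite signs in the pigs, and 16 of these 18 read lower in deep in pig 1 and higher in deep in pig 2. Over all named genes 1899 of 5272 (36.0%) had opposite signs, 1038 of them in that order. The median factor difference was −0.34 in pig 1 and 0.20 in pig 2, beside −0.06 and 0.00 over all named genes. After quantile normalization the counts were again 18 and 16, and the factor medians were −0.31 and 0.10. Under the crossed reading of the titles 12 factors (30.8%) had opposite signs, 6 in each order, beside 31.9% of all named genes. With 1 pair of arrays per pig, a difference between animals and one between single cultures or hybridisations cannot be told apart.

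The elongation factors held the largest positive difference. EEF1A1 encodes the protein that brings aminoacyl-tRNA to the ribosome, and its highest-signal probeset is one that the manufacturer uses as a control. Its signals were 9704, 10313, 13030 and 23764, both deep arrays above both shallow ones. Control probesets were left out of the test, and with them kept the difference was 0.81 ± 0.34 (limma adjusted p = 0.343). The control probesets at the 3′ and 5′ ends of the same transcript gave 0.82 and 0.68, and their 3′ to 5′ ratio was 1.13, 1.22, 1.19 and 1.41. The other 3 probesets named for EEF1A1 had far lower signals and differences of 0.02, 0.10 and 0.00.

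The eEF1B complex recharges EEF1A1 with GTP, and its measured subunits differed from each other. EEF1B2, an exchange subunit, gave 7224, 7663, 9826 and 17896. Deep pig 2 was far above the other arrays and deep pig 1 was above both shallow arrays. The difference was 0.83 ± 0.33 with a 95% confidence interval of 0.08 to 1.59 (unadjusted p = 0.0342, adjusted p = 0.314 by limma). It was 0.40 without deep pig 2, 0.14 after quantile normalization and −0.11 with the actin covariate. EEF1G, the structural subunit, followed the same order with 6398, 6718, 8387 and 12666, a difference of 0.65 ± 0.30 (limma adjusted p = 0.398) that was 0.06 after quantile normalization and 0.00 with the actin covariate. EEF1D, a further exchange subunit, gave 2531, 1727, 1888 and 2241, overlapping between depths at −0.02 ± 0.30.

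EEF1E1 bears the name of an elongation factor but is known as a scaffold protein of the complex that gathers several synthetases. It gave 1696, 972, 864 and 720. Both deep arrays were below both shallow arrays, and shallow pig 1 was much the highest. The difference was −0.70 ± 0.28 (unadjusted p = 0.0364, adjusted p = 0.319 by limma), its second probeset gave −0.74, and without shallow pig 1 the difference was −0.30. Without shallow pig 2 it was −1.10. EEF1AKMT1, an enzyme that methylates eEF1A, was level at 0.03 ± 0.27.

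**Figure D2:**
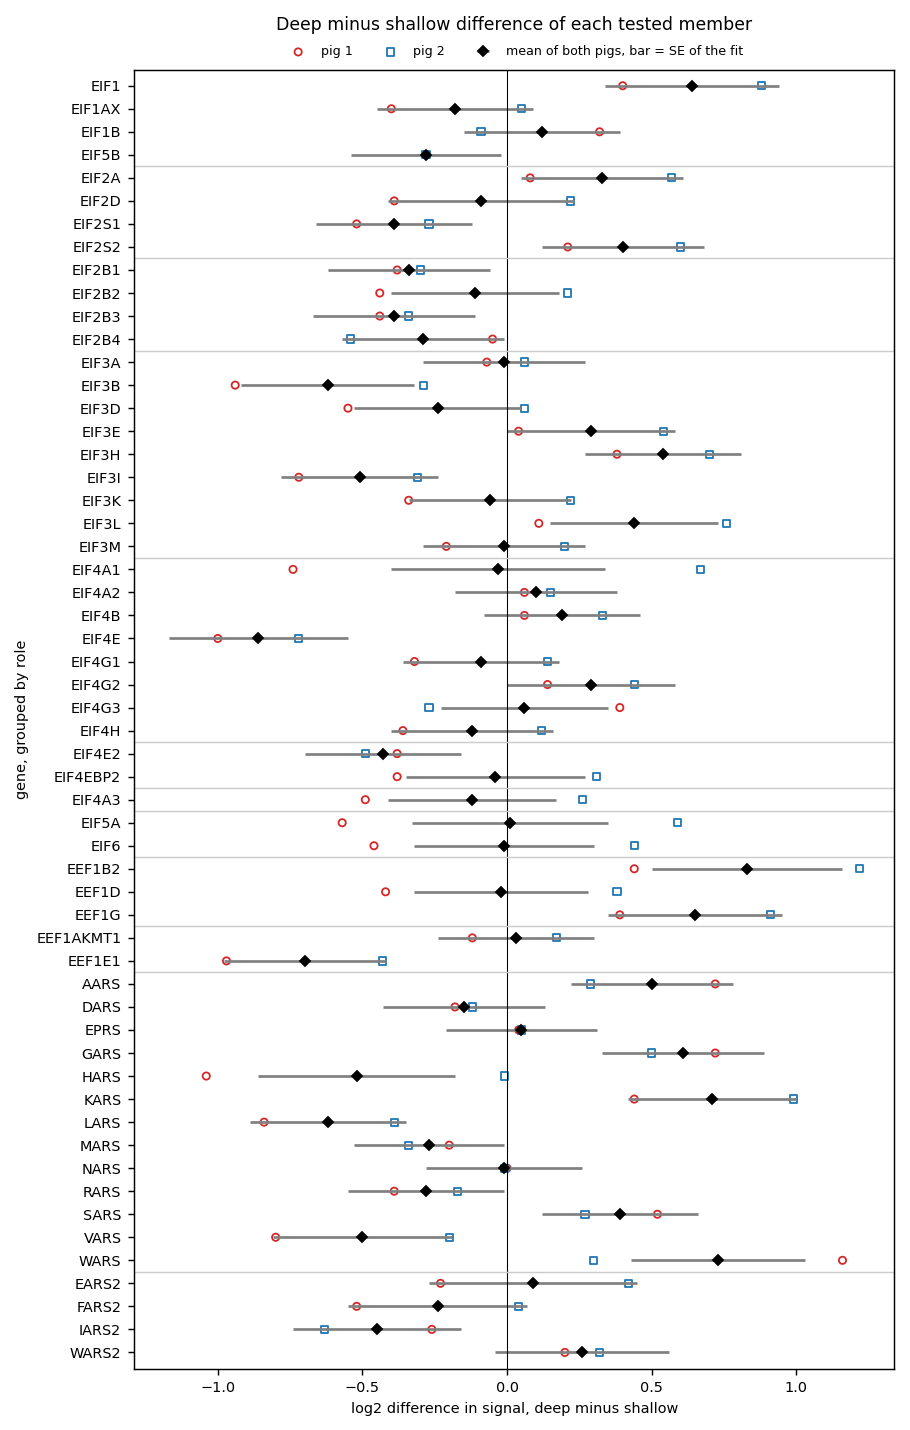
Log2 difference in signal, deep minus shallow, of each of the 56 tested members, with pig 1 and pig 2 as open symbols, their mean as a filled diamond and the standard error of the fit as a bar. EEF1B2 (0.83) and WARS (0.73) lie farthest to the right and EIF4E (−0.86) and EEF1E1 (−0.70) farthest to the left, and the open symbols of EIF4A1, EIF5A and EIF6 fall on opposite sides of 0.

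The size and sign of a factor's difference followed its mean signal. The 6 factors with a mean log2 signal of at least 12 had a median difference of 0.46, the 20 between 10 and 12 had −0.01 and the 11 between 8 and 10 had −0.29. All named genes between 10 and 12 had a median of −0.04, and those between 8 and 10 had −0.11. Over the 39 factors, Pearson's r between mean log2 signal and difference was 0.70, over the 17 synthetases it was 0.48 and over all 5272 named genes it was 0.08. These points come from the same 4 arrays and share their scaling. Among all named genes with a mean log2 signal of at least 12, 209 of 234 read higher in deep and the median difference was 0.59. EIF1, EEF1G and EEF1B2 thus lay among genes that mostly read higher in deep. The control probeset used for EEF1A1, at a mean log2 signal of 13.7, lay in the same range but was not part of the quantile normalization. After quantile normalization the medians in that range were −0.08 for the 6 factors and 0.03 for the 234 genes.

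**Figure D3:**
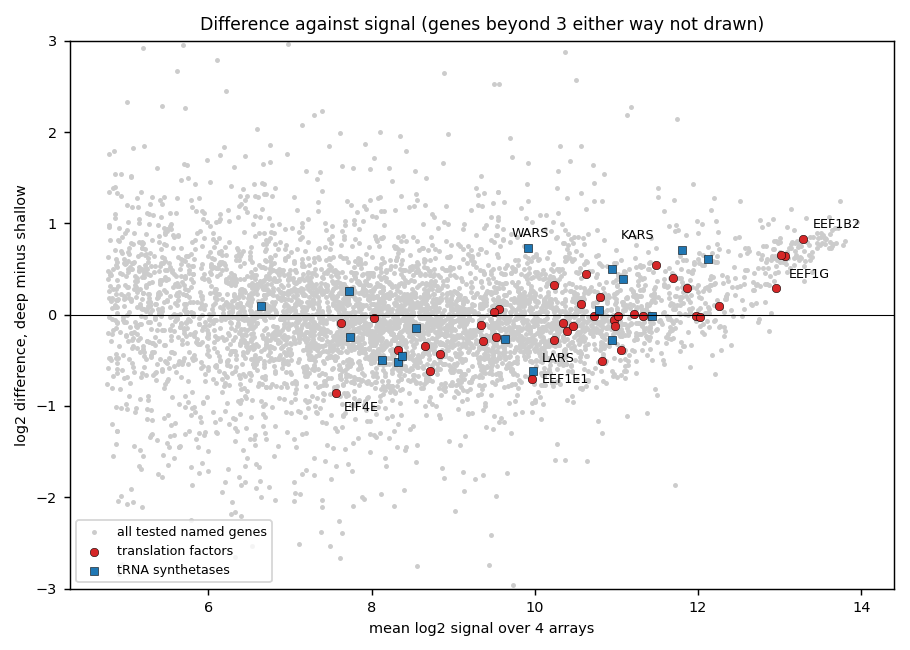
Log2 difference, deep minus shallow, against mean log2 signal over the 4 arrays, for all tested named genes (grey), the tested factors (red circles) and the tested synthetases (blue squares). At the right, where the 234 genes at or above 12 have a median of 0.59, EEF1B2 and EEF1G lie within the grey band, while EIF4E at the left lies below 0 at −0.86.

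No synthetase passed the test for a difference between deep and shallow fibroblasts. Of 19 synthetases, 17 were tested, and limma called 0 higher and 0 lower at an adjusted p under 0.05, beside the background of 0.303% and 0.0948%. The smallest adjusted p was 0.33. At an unadjusted p under 0.05, 2 were higher (11.8%) and 0 were lower, beside 7.4% and 8.06% of all named genes. Both deep arrays lay above both shallow arrays for 6 synthetases (35.3%) and below for 6 (35.3%), beside 23.7% and 28.4%, and the groups overlapped in 5. Among 17 genes each one weighs heavily in such a share, and these shares were not far from the background.

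The median synthetase difference was −0.01, and it lay between −0.07 after quantile normalization and 0.06 with arrays centred on the probesets past the filter. Differences ranged from −0.62 for LARS to 0.73 for WARS. Only 2 of 17 synthetases (11.8%) had opposite signs in the pigs, against 1899 of 5272 named genes (36.0%). Under the crossed reading of the titles 5 synthetases (29.4%) did, near the 31.9% of all named genes. The synthetases were thus spread to both sides of 0 with signs that were mostly shared by the pairs of arrays in listed order.

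**Figure D4:**
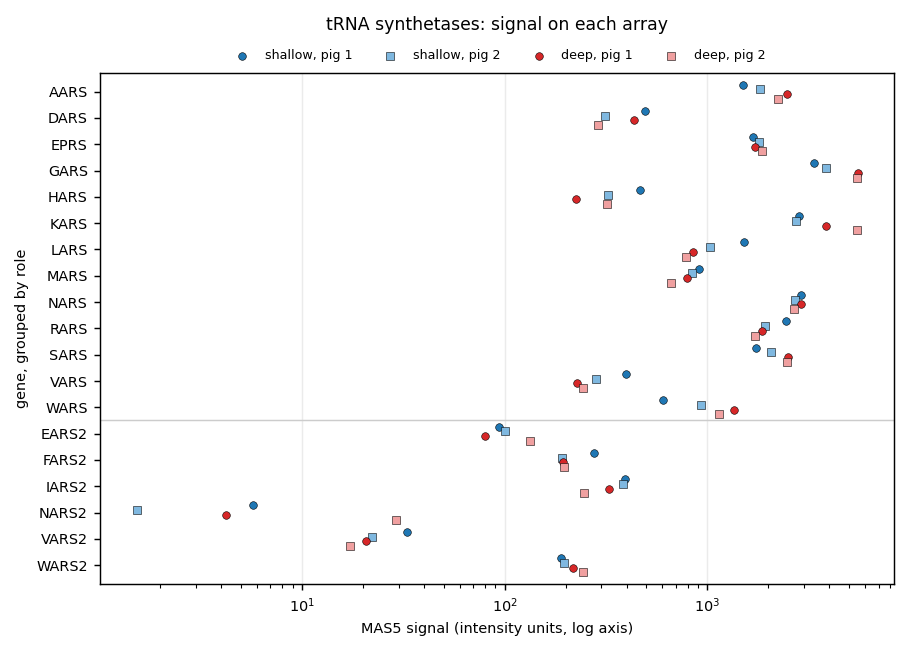
MAS5 signal (intensity units, log axis) of the 19 synthetases on each of the 4 arrays, 1 point per array, cytosolic enzymes above the grey line and mitochondrial enzymes below it. GARS, KARS, AARS, SARS and WARS have both deep points to the right of both shallow points, LARS, VARS, RARS, HARS and MARS have them to the left, and EPRS and NARS have 4 points close together.

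The 13 cytosolic enzymes held 5 with both deep arrays above both shallow ones (38.5%, beside 23.7% of all named genes). WARS, the tryptophanyl enzyme, is also known to be induced by interferon. It gave 606, 933, 1357 and 1148. Shallow pig 1 was the lowest, and the difference was 0.73 ± 0.30 with a 95% confidence interval of 0.03 to 1.44 (unadjusted p = 0.0435, adjusted p = 0.344 by limma). It was 1.16 in pig 1 and 0.30 in pig 2, 0.42 without shallow pig 1, and 0.70 to 0.80 under quantile normalization, both centrings and the actin covariate. Without shallow pig 2 the WARS difference was 1.04. Its other probesets gave 0.57 and 0.20.

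KARS, the lysyl enzyme that serves both cytosol and mitochondria, gave 2824, 2742, 3831 and 5447. The shallow arrays were close together and deep pig 2 was the highest. The difference was 0.71 ± 0.29 with a 95% confidence interval of 0.05 to 1.38 (unadjusted p = 0.039, adjusted p = 0.33 by limma). It was 0.53 after quantile normalization, 0.46 without deep pig 2 and 0.20 with the actin covariate.

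GARS, AARS and SARS, the glycyl, alanyl and seryl enzymes, read higher in deep in both pigs. GARS gave 3366, 3871, 5556 and 5480, a difference of 0.61 ± 0.28 (limma adjusted p = 0.386). AARS gave 1502, 1824, 2472 and 2226, a difference of 0.50 ± 0.28 (limma adjusted p = 0.466). SARS gave 1740, 2054, 2495 and 2471, a difference of 0.39 ± 0.27 (limma adjusted p = 0.566). In each gene the deep arrays lay close together and above both shallow arrays, and shallow pig 1 was the lowest. With the actin covariate the differences were 0.56 for GARS, 0.57 for AARS and 0.32 for SARS. After quantile normalization they were 0.38, 0.48 and 0.34 in the same order. As a mean over each gene's probesets they were 0.29, 0.71 and 0.22. For the probesets used, the sign of all 3 genes held under every scaling and without any single array. Another SARS probeset gave 547, 626, 745 and 488, overlapping between depths at 0.04 ± 0.30, with 0.45 in pig 1 and −0.36 in pig 2.

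The 5 cytosolic enzymes with both deep arrays below both shallow arrays (38.5%, beside 28.4% of all named genes) were LARS, VARS, HARS, RARS and MARS, which charge leucine, valine, histidine, arginine and methionine. LARS gave 1521, 1035, 848 and 789. Its difference was −0.62 ± 0.27 (limma adjusted p = 0.375), and without shallow pig 1, much the highest array, it was −0.34. VARS gave 397, 281, 228 and 244, a difference of −0.50 ± 0.31 (limma adjusted p = 0.517) that was −0.25 without shallow pig 1. In both genes shallow pig 1 was the high array, and the difference was larger in pig 1 than in pig 2. HARS gave 463, 322, 225 and 320, with −1.04 in pig 1 and −0.01 in pig 2, so its mean of −0.52 ± 0.34 came from 1 pig. RARS gave 2448, 1932, 1871 and 1718, a difference of −0.28 ± 0.27 that was −0.03 with the actin covariate. MARS gave 909, 843, 793 and 664, a difference of −0.27 ± 0.26 that was 0.04 with the actin covariate.

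EPRS and NARS were level across the arrays. EPRS, which charges glutamate and proline, gave 1675, 1803, 1724 and 1869, a difference of 0.05 ± 0.26 with a 95% confidence interval of −0.56 to 0.66. NARS, the asparaginyl enzyme, gave 2891, 2703, 2888 and 2675, a difference of −0.01 ± 0.27 with an interval of −0.63 to 0.61. These intervals still allow differences as large as those of LARS or GARS. DARS, the aspartyl enzyme, overlapped between depths at −0.15 ± 0.28, and its second probeset gave 0.18.

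Of the 6 mitochondrial enzymes, 4 were tested. IARS2, the mitochondrial isoleucyl enzyme, gave 392, 383, 327 and 247, both deep arrays below both shallow ones, with a difference of −0.45 ± 0.29 (limma adjusted p = 0.545) that was −0.01 with the actin covariate. WARS2, the mitochondrial tryptophanyl enzyme, gave 190, 197, 218 and 245, a difference of 0.26 ± 0.30. In WARS2, as in WARS, both deep arrays lay above both shallow ones. EARS2 and FARS2 overlapped between depths at 0.09 and −0.24. NARS2 lay below the absent controls on all 4 arrays and VARS2 on 2, and neither was tested.

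Several genes had more than 1 tested probeset, and these did not always read alike. Among 22 such genes, the probesets of 8 differed in sign. EIF2A had the widest spread, with 0.33 from its high-signal probeset and −0.99 ± 0.34 from another that gave 285, 393, 196 and 144 (limma adjusted p = 0.245). EIF5A was at 0.01 from the probeset used and at −0.84 ± 0.30 from another, which gave 1495, 891, 620 and 667 (limma adjusted p = 0.273). The second EIF5A probeset thus had both deep arrays below both shallow ones where the first overlapped. GARS gave 0.61, 0.32 and −0.04 from 3 probesets, AARS gave 0.50 and 0.91, and EIF3M gave −0.01 and −0.61. For these genes the difference depends on the probeset taken.

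**Figure D5:**
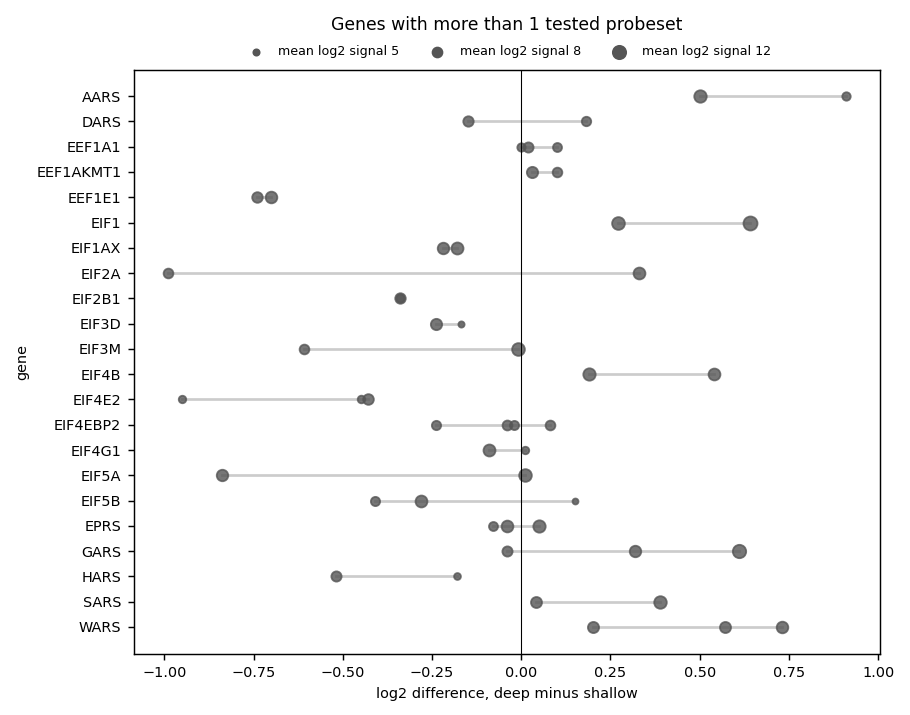
Log2 difference, deep minus shallow, of every tested probeset of the 22 members with more than 1, with point size showing mean log2 signal. EEF1E1 and EIF2B1 have points on top of each other, while EIF2A (−0.99 and 0.33) and EIF5A (−0.84 and 0.01) have points far apart.

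The rest of the pathway was read from lists of genes that work beside the members. Genes of the amino acid and unfolded protein stress response, which is set off through phosphorylation of eIF2 and whose targets include several synthetases, were measured for 12 of 18 on the list. None was called by limma at an adjusted p under 0.05, 3 were higher at an unadjusted p under 0.05, beside 7.4% of all named genes, and in 9 of 12 the lower deep array exceeded the higher shallow one, beside 23.7% of all named genes. All 12 had a positive difference, as they did after quantile normalization and centring on probesets past the filter, while 9 did with the actin covariate and 11 without either one of the shallow arrays, and the median was 0.60 against −0.04 over all named genes. DDIT3, a stress-induced transcription factor, gave 235, 434, 724 and 733, a difference of 1.19 (limma adjusted p = 0.156). ATF3, another, gave 181, 205, 553 and 325, a difference of 1.14 (limma adjusted p = 0.189). ATF4, the factor whose own translation goes up when eIF2 is phosphorylated, gave 3149, 3513, 4624 and 5571, a difference of 0.61, and was named after its value was seen. No test tied this list to the synthetases, which were read from the same 4 arrays.

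A list of 9 genes held scaffold proteins of the synthetase complex, subunits of the phenylalanyl enzyme and other enzymes that act on tRNA or its charging. Of these, 5 were tested and 0 called by limma, and 0 had an unadjusted p under 0.05. The 5 tested genes, AIMP1, AIMP2, FARSA, FARSB and PTRH2, had negative differences, also after quantile normalization and with the actin covariate, where 2827 of 5272 named genes were negative. Their median was −0.30, and −0.21 without shallow pig 1. In 4 both deep arrays lay below both shallow ones, beside 28.4% of all named genes, and AIMP2 overlapped, with −0.67 in pig 1 and 0.06 in pig 2. PTRH2, a peptidyl-tRNA hydrolase and part of neither the complex nor the phenylalanyl enzyme, gave 966, 773, 546 and 613, a difference of −0.58. FARSA, a subunit of the cytosolic phenylalanyl enzyme, gave 665, 604, 481 and 464, a difference of −0.42.

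Mitochondrial translation factors were tested for 6 of 10 genes, with 0 called by limma, 1 lower at an unadjusted p under 0.05 (8.06% of all named genes were), and a median of −0.44. Without shallow pig 1 the median was −0.20, and without shallow pig 2 it was −0.69. GFM1, a mitochondrial elongation factor, gave 482, 281, 195 and 171, a difference of −1.01 (limma adjusted p = 0.208). MTRF1, a mitochondrial release factor, had a difference of −0.79. A list on the modification of eIF5A and eEF2 also held polyamine enzymes such as ODC1, and 6 of its 12 genes were tested. Limma called 0, and 2 were lower at an unadjusted p under 0.05, beside the same 8.06%. The median was −0.39. That median was −0.22 without shallow pig 1, −0.64 without shallow pig 2 and −0.12 with the actin covariate. DPH5, which acts in the synthesis of the modified residue of eEF2, gave 430, 339, 245 and 160, a difference of −0.95 (limma adjusted p = 0.211). ODC1, which makes the polyamine precursor of hypusine, gave 2905, 2056, 1952 and 1297, a difference of −0.62.

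Poly(A)-binding and related genes were tested for 4 of 10 and mTOR and MNK signalling genes for 8 of 20. In both lists limma called 0 genes and 0 had an unadjusted p under 0.05. The medians were −0.23 for the first, 0.04 without shallow pig 1, and 0.27 for the second, −0.04 with the actin covariate. PABPC1, the main cytoplasmic poly(A)-binding protein, gave 6163, 5787, 6833 and 10630, a difference of 0.51, and PABPC4, a relative that was high in shallow pig 1 (1801, 964, 895 and 1008), was at −0.47. Of the signalling genes, RPS6KA1, a kinase, gave 179, 51.3, 39.1 and 82.7. Shallow pig 1 stood above the other 3 arrays, and the mean difference of −0.75 was made of −2.19 in pig 1 and 0.69 in pig 2. SESN1, an inhibitor of mTOR signalling, was at 0.66. Genes of termination and recycling had 0 of 8 measured. Interferon-induced genes, listed because WARS is one, were tested for 8 of 12. Limma called 2 of them higher in deep and 5 were higher at an unadjusted p under 0.05, beside 0.303% and 7.4% of all named genes. ISG15, a ubiquitin-like protein, gave 162, 117, 633 and 478 and rose by 2.00 (adjusted p = 0.0453 by limma). RSAD2, an antiviral enzyme, gave 12.2, 6.42, 143 and 63.6, and both shallow signals were below the highest absent control of their array. With those controls' signals in place of the shallow ones, RSAD2 was at least 6.73-fold higher in deep than in shallow, a bound that was not tested. Its adjusted p of 0.0438 by limma belongs to the difference of 3.43 from the measured signals. Neither call held without the pig block, without the filter on dim probesets, with the actin covariate or with arrays centred on the probesets past the filter, and that of ISG15 did not hold with plain median centring. With a single array left out, the ISG15 difference ran from 1.76 without shallow pig 2 to 2.23 without shallow pig 1. That of RSAD2, from the measured signals, ran from 2.84 without deep pig 1 to 4.02 without deep pig 2. These fits had no pig block and left a lone array at one depth, so no p-value is given for them.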

How the data were processed

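Fibroblast RNA of 4 arrays was compared, 2 per depth. The authors deposited MAS5 signal intensity values on a linear scale, for which the submitters' processing notes name MAS5 and GCOS 1.0. The mean of each deposited array without its top and bottom 2% of probesets was 250.1 intensity units, so the arrays share a scale. The scaling target and scan settings are not given in the sources used here, and arrays carry no read depth, so precision is set by how few they are. After removal of 124 control probesets, signals under 1 were raised to 1 and log2 was taken. Of 23999 probesets, the dimmest 40% by mean log2 (below a signal of 27.1) were dropped, and 14399 were tested.

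Genes were named through the platform annotation, and for 59 of the 60 members the gene identifier was found in the current gene table with the same symbol. Probesets with several symbols were left out, among them those of EIF2S3 and EIF3G. EEF2, EIF5, EEF2K, EIF4EBP1 and EEF1A2 had no singly named probeset and were not analysed here. Absent-transcript levels came from 23 control probesets.

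The test of depth was the moderated test of limma 3.58.1 (lmFit, eBayes with trend; R 4.3.3), blocked on pig and two-sided, with Benjamini-Hochberg adjustment over all probesets tested. The fit has 1 residual degree of freedom, to which moderation added 6.88, and it was tested on simulated data. The pairing comes from the design text and the titles, and the correlation between arrays of one pig, after each depth's mean was removed, was −0.01. The other settings tried were no block, crossed pairing, no dim filter, quantile normalization, centring and an offset of 16. Further ones were the actin ratio as a covariate, the mean over a gene's probesets, and each array left out. The fits with the actin covariate or with an array left out had no pig block, so they differ from the main fit in that as well. Centring on probesets past the filter and keeping control probesets were added after seeing the data.

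The members and gene lists were chosen with earlier results of these data known. Named members were, besides any called, the 8 factors and 5 synthetases with the largest positive and the largest negative differences of shared sign in both pigs and a fixed set of core genes, with others named under their role. For each pathway list, up to 2 genes with the largest absolute difference were named.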

Additional observations from a re-analysis of the deposited data

How the results depend on the processing

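No member passed an adjusted p of 0.05 under any setting with all 4 arrays, including the fit with no replicate block, where the counts were again 0 higher and 0 lower for factors and for synthetases, and the crossed pairing. With 1 array left out in turn, the factors called lower ranged from 0 to 3 and the synthetases called higher from 0 to 1. All 4 of these calls came from leaving out the shallow array of pig 2, which leaves shallow pig 1 as the lone shallow array, assumed to vary like the deep arrays: EIF4E at −1.13, EEF1E1 at −1.10, EIF3B at −0.96 and WARS at 1.04. The median factor difference lay between −0.20 and 0.09 over all settings, and the median synthetase difference between −0.07 and 0.06. Of 352 values of 36 named members under the settings that keep all arrays, 344 kept their direction and call and 8 changed sign. A change of sign was not counted where neither value was called and both lay within 1 standard error of 0. With the actin covariate EEF1B2 went to −0.11, EIF2A to −0.08, EIF3E to −0.09, EIF3L to −0.17 and EIF4E2 to 0.15. As a mean over all probesets, EIF2A went to −0.33 and EIF5A to −0.42, by construction since their probesets differ. After quantile normalization EIF4G2 went to −0.28. The cause of the changes under the actin covariate and quantile normalization was not tested, and the actin ratio itself was higher on both deep arrays. Over all 14399 probesets, limma called 34 higher and 15 lower with the block and 0 and 0 without it (922 and 963 at an unadjusted p under 0.05). With centring on the probesets past the filter 5 were called higher and 0 lower. Over all probesets the crossed pairing called 119 and 83. With 2 arrays per depth, single-gene standard errors of 0.26 to 0.37 limit what differences could be called.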
